A study of Ulva lactuca with 4 samples.

Results

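The transcriptome of Ulva lactuca thalli after 36 h of desiccation was set against that of thalli kept under water, contig by contig. Ulva lactuca, the sea lettuce, is a green alga with a thin, sheet-like body (thallus) that grows between the tide marks. The 36 h library came from thalli held at 20% moisture, and the control library from thalli that were always submerged, with 1 library for each. The series holds 4 libraries of this alga, the other two from thalli desiccated at the same moisture for 24 h and 72 h. The thalli were collected and acclimatised to the laboratory, per the series' design text. The labels give neither the number of thalli behind a library nor the time at which the control was sampled, so a sampling time that differed cannot be told apart from desiccation. A contig is a transcript sequence built from the reads by de novo assembly. Contigs entered the comparison when they had at least 50 scaled counts (reads divided by the size factor of their library) in the control or at 36 h. That gave 41280 of the 105451 contigs in the tables, or 39.1%, and they took 99.4% of the reads of the control and 99.4% of those at 36 h.

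Seaweeds of this zone dry out when the tide leaves them. Ulva has no cuticle, so its cells lose water to the air and take it up again on rewetting. In dried green algae photosynthesis is known to be shut down, reactive oxygen to build up, and antioxidant enzymes, compatible solutes and protective proteins to be made. The tables used here pair contigs with no gene name, so none of these functions could be followed and the alga's own transcripts could not be checked against marker genes. The results below therefore describe contigs by level, size of difference and membership in assembly clusters. In bulk RNA, a change of the RNA per cell and a change in the mixture of cells cannot be told apart.

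The control library held 52643595 reads counted on contigs and the 36 h library 71024673. The libraries at 24 h and 72 h held 74243310 and 53279365 reads. With 1 library a side there was no spread between samples to test against, so every difference is one between libraries. Intervals are exact Clopper-Pearson 95% intervals of a ratio of counts, which cover counting error only.

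The 36 h library had 3044 contigs that exceeded their control level 4-fold or more, called higher here, and 2740 that lay 4-fold or more below it, called lower. Ratios were taken as log2 of (scaled count + 1) at 36 h over (scaled count + 1) in the control. The higher contigs were 7.37% of those compared and the lower ones 6.64%. Most of the transcriptome was closer to the control: 25000 contigs (60.6%) lay within 2-fold of it, and 10496 (25.4%) between 2-fold and 4-fold. The contigs within 2-fold took 68.4% of the reads of the control and 63.5% of those at 36 h. The median log2 ratio over all contigs compared was -0.06, and the middle 50% of them lay between -0.80 and 0.72. The central 90% lay between -2.27 and 2.47, and the central 98% between -4.37 and 6.16, so that the distribution reached further up than down. The count minimum did not set apart a group of its own. Of the 1292 contigs with 50 to 60 scaled counts, 24.5% were past 4-fold, and of the 1761 with 40 to 50, which were left out, 27.1%. Intervals of counting error were taken from the same counts as the calls, so they are not a separate check of them. The whole 95% interval lay past 4-fold for 2259 of the higher contigs (74.2%) and for 1851 of the lower ones (67.6%).

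**Figure D1:**
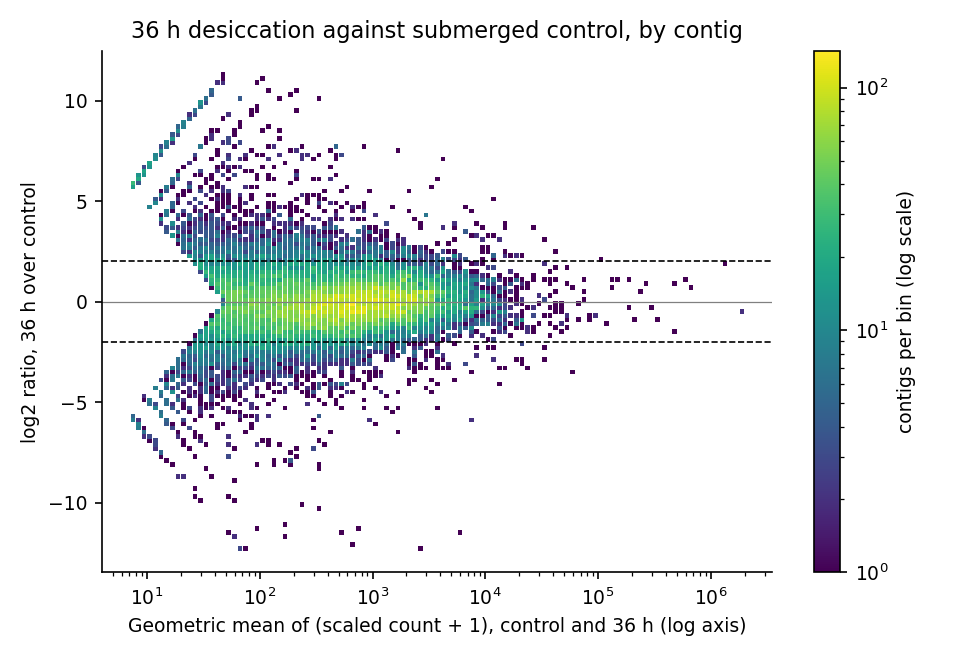
Each square is a bin of contigs, coloured by the number of contigs in it. The x axis is the geometric mean of the scaled counts plus 1 in the control and at 36 h (log axis), the y axis is the log2 ratio of 36 h over the control, and the dashed lines mark 4-fold. Most contigs lie near 0, with 25000 within 2-fold, and the slanting rows at the left are contigs with 0 or few reads in 1 of the 2 libraries.

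With the scaling used here, the directions were balanced among moderate differences and unequal among extreme ones. Between 4-fold and 16-fold, 2195 contigs were higher and 2192 lower. Between 16-fold and 64-fold, 402 were higher and 405 lower. The balance from 4-fold to 64-fold turned with the scaling: the upper quartile gave 2988 higher and 2298 lower contigs, and library totals gave 2467 and 2804. At 64-fold and beyond, 447 contigs were higher (1.08% of those compared) and 143 lower (0.346%), so that 75.8% of the extreme contigs were higher at 36 h. Beyond 256-fold the numbers were 151 and 35. Part of these folds rests on the 1 that was added, since 268 of the 447 had 0 reads in the control and 60 of the 143 had 0 at 36 h. Among contigs read in both libraries, 179 were at least 64-fold higher and 83 lower, or 68.3% higher. With nothing added and 3 counts put in place of each 0, 355 were at least 64-fold higher and 156 lower, or 69.5% higher. The 447 higher ones lay in 187 clusters of the assembly and the 143 lower ones in 94. Counts summed per cluster gave 186 clusters at least 64-fold higher and 88 lower, or 67.9% higher.

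**Figure D2:**
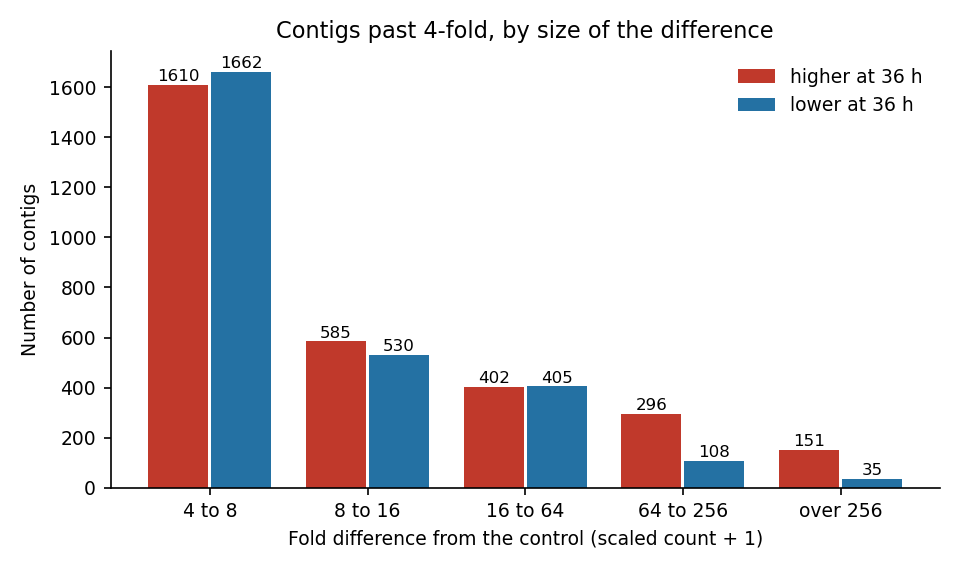
Bars give the number of contigs (y axis) in each band of fold difference between 36 h and the control (x axis), red for higher and blue for lower at 36 h. With the scaling used here (the median of ratios) the bars of a pair are close up to 64-fold, with 402 and 405 in the band from 16-fold to 64-fold, and part beyond it, with 296 against 108 and 151 against 35.

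The differing contigs moved a limited part of the RNA. The share of all reads on the higher contigs was 1.24% in the control and 8.63% at 36 h. On the lower contigs it was 7.08% and 0.765%. The loss was the more concentrated of these changes. Of the reads that the lower contigs had in the control, 27.7% lay on 10 contigs and 50% on 49 contigs. Of the reads that the higher contigs had at 36 h, 16.1% lay on 10 contigs and 50% on 113. The 447 contigs at least 64-fold higher took 0.825% of the reads at 36 h, and the 143 at least 64-fold lower had taken 1.35% of those of the control. Of that 1.35%, 0.826 percentage points lay on 2 contigs described below, c57626_g1_i1 and c19261_g3_i1, and the other 141 contigs had taken 0.523%. A larger shift came from contigs between 2-fold and 4-fold. Those higher took 8.34% of the reads of the control and 21.1% at 36 h, and those lower took 14.4% and 5.43%. In total, 28.8% of the reads would have to be placed on other contigs to turn the makeup of the control library into that of the 36 h library. The same measure was 33.0% for the control and 24 h and 29.0% for the control and 72 h. Among desiccated libraries it was 21.0% for 24 h and 36 h and 21.3% for 36 h and 72 h. These pairs share libraries, and their values have no error without replicates.

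How often a contig was past 4-fold depended on its level. Contigs were placed by their scaled count in whichever of the 2 libraries was higher. From 50 to 100 scaled counts, 12.4% of 4939 contigs were higher at 36 h and 11.8% lower. The share past 4-fold was smallest from 1000 to 5000, where 5.27% of 12701 contigs were higher and 3.91% lower. Among the 248 contigs with 20000 or more, 48 (19.4%) were higher and 30 (12.1%) lower. With the scaling used here, the directions were close to even below 500 scaled counts, with 1701 higher and 1766 lower. At 500 or more, 1343 were higher and 974 lower. The split by level was not repeated with other scalings. Over all levels, library totals gave 2909 higher and 2955 lower contigs, and the upper quartile 3453 and 2439. Scaled counts were not divided by contig length, which the tables do not give, so a high level can be a long contig as well as an abundant one.

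**Figure D3:**
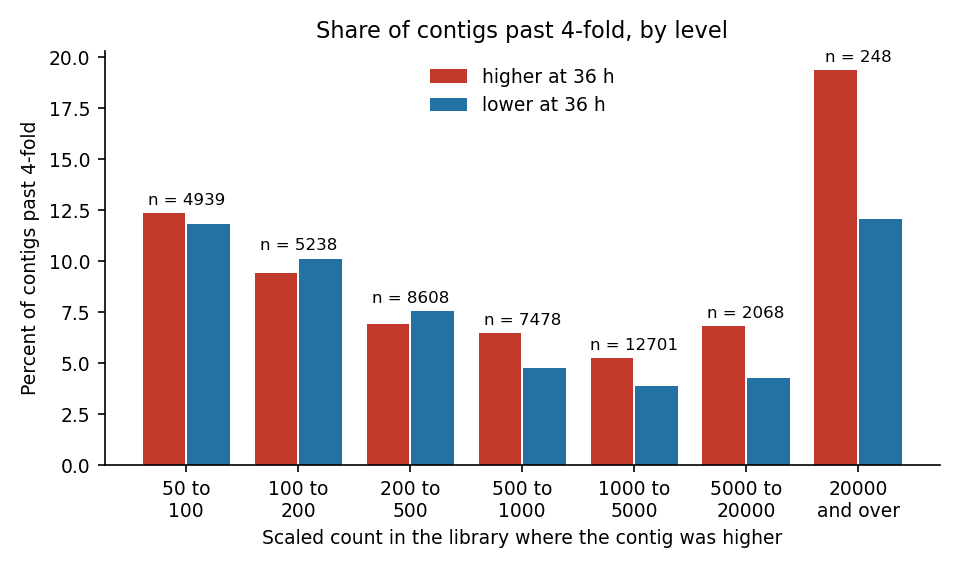
Bars give the percent of contigs at least 4-fold higher (red) or lower (blue) at 36 h (y axis) in bands of the scaled count in the library where the contig was higher (x axis), with the number of contigs compared above each pair. The shares fall from 12.4% and 11.8% in the band from 50 to 100 to 5.27% and 3.91% in the band from 1000 to 5000, and reach 19.4% and 12.1% in the band with the most counts.

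The named contigs are the 2 with the largest gain and the 2 with the largest loss in scaled counts, among contigs past 4-fold with at least 10 reads in both libraries. The contig with the largest gain, c65101_g1_i1, had 46827 reads in the control, 834981 at 24 h, 272214 at 36 h and 67215 at 72 h. It was the 49th most read contig of the control and the 13th at 36 h. Its scaled count was 52930 in the control, 741658 at 24 h, 237575 at 36 h and 75522 at 72 h, so that the control was the lowest library and 24 h the highest. The ratio of 36 h to the control was 4.49 (95% interval 4.44 to 4.53), close to the threshold. With other scalings of the libraries the contig was from 4.31-fold to 4.82-fold higher, each time outside that interval, which covers counting error only. In the authors' deposited table its fold change was 4.65 and its adjusted p-value 1.

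The contig c21462_g1_i1 had 10606 reads in the control, 31480 at 24 h, 117150 at 36 h and 24966 at 72 h. The scaled counts were 11988, 27962, 102243 and 28052 in the same order. This contig peaked at 36 h and had the control as its lowest library. It was 8.53-fold higher at 36 h than in the control (8.36 to 8.70). With other scalings it was from 8.19-fold to 9.16-fold higher, each time outside that interval. The authors' deposited table lists it as upregulated, with an adjusted p-value of 0.901 and an unadjusted one of 0.0191.

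The largest losses were of another size. The contig c57626_g1_i1 had 265993 reads in the control, 75 at 24 h, 121 at 36 h and 31 at 72 h. It was the 10th most read contig of the control, with 0.505% of its reads, and held 106 scaled counts at 36 h. It was 2847-fold lower at 36 h (2383 to 3431), and the authors' deposited table gives it an adjusted p-value of 0.000274. The contig c19261_g3_i1 had 168708 reads in the control, 30 at 24 h, 44 at 36 h and 31 at 72 h. It was 4966-fold lower at 36 h (3699 to 6835), and the authors' deposited table gives it an adjusted p-value of 1.35e-05. With other scalings both ratios stayed inside their intervals. Both contigs were high in the control library alone. Together they made up 0.826% of the reads of the control, which is 11.7% of the reads held there by all contigs lower at 36 h. Each of the 4 named contigs is alone in its cluster.

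Some contigs were read in only 1 of the 2 libraries. With at least 50 scaled counts in the other library, 316 contigs had 0 reads in the control and 75 had 0 at 36 h. The 316 contigs had between 58 and 2704 reads at 36 h, with a median of 169. With 3 counts in place of 0 they were at least 14.9-fold to at least 696-fold higher, with a median bound of 43.5, and 128 of them were at least 64-fold higher. They lay in 164 clusters. In the other desiccated libraries, 262 of the 316 had 10 reads or more at 24 h and 291 at 72 h, with medians of 178.5 and 125.5 reads. Of all contigs compared, 89.5% had 50 scaled counts or more at 24 h and 91.0% at 72 h. That is a higher level than 10 reads, so these shares cannot be set against those of the 316. With 0 reads there were 12 of the 316 at 24 h and 11 at 72 h, against 84 and 118 of the 41280 contigs compared. This difference was not tested. The 75 contigs with 0 reads at 36 h had between 45 and 4460 reads in the control, with a median of 81, and were at least 19.4-fold to at least 1925-fold lower. They lay in 62 clusters. Of these 75, 24 were also without reads in the 24 h library and 25 in the 72 h library. Over the 41280 contigs compared, 84 and 118 were without reads in those libraries. This contrast was not tested, and the 75 were chosen for having no reads at 36 h. A count of 10 reads or more was reached by 14 of the 75 (24 h) and by 24 (72 h). For that level no share over all contigs compared is given.

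The 36 h library held more reads. Thinned to the total of the control, the libraries gave 279 contigs with 0 reads in the control and 88 with 0 at 36 h. Without the minimum of 50 scaled counts, and with 10 reads or more in the other library, the numbers were 1815 and 588 as deposited. With the totals matched they were 1295 and 740, a smaller difference. The total of counted reads is the only property matched in this way.

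The contigs that differed at 36 h were also followed in the libraries at 24 h and 72 h. The 3044 higher contigs had a median of 34.5 scaled counts in the control, 283 at 24 h, 377 at 36 h and 374 at 72 h. The middle 50% lay between 7.91 and 140 in the control and between 125 and 1179 at 36 h. They held 9.08% of the reads at 24 h and 7.59% of those at 72 h. A level of 50 scaled counts was reached by 1292 of them (42.4%) in the control, 2394 (78.6%) at 24 h and 2624 (86.2%) at 72 h. The shares of all contigs compared that reached it were 92.2%, 89.5% and 91.0% in the same libraries. For the higher contigs, the log2 ratio to the control had a median of 2.40 at 24 h, 2.90 at 36 h and 2.89 at 72 h. The 2740 lower contigs had a median of 278 scaled counts in the control, 56.0 at 24 h, 35.8 at 36 h and 85.4 at 72 h. They held 1.65% of the reads at 24 h and 2.16% at 72 h. For these contigs that median was -2.18 (24 h), -2.73 (36 h) and -2.04 (72 h) on the log2 scale. Over all contigs compared, these medians were -0.04 at 24 h and -0.07 at 72 h. The 3 ratios share the control library, and the contigs were selected on the control and 36 h, which moves the 36 h value away from 0 and, through the control, the others with it.

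The extreme contigs were followed in the same way. Those at least 64-fold higher at 36 h had a median of 0 scaled counts in the control, 315 at 24 h, 394 at 36 h and 282 at 72 h. Those at least 64-fold lower had a median of 373 in the control, 5.33 at 24 h, 0.873 at 36 h and 18.0 at 72 h. At 72 h, 47 of these 143 contigs had 50 scaled counts or more, with 22 at 24 h and 3 at 36 h. The shares of all contigs compared at that level were 91.0% at 72 h, 89.5% at 24 h and 92.2% at 36 h. The extreme contigs were selected on the control and 36 h. Their values in those libraries are therefore set by the rule, and the step from 36 h to 24 h or 72 h is not a result.

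**Figure D4:**
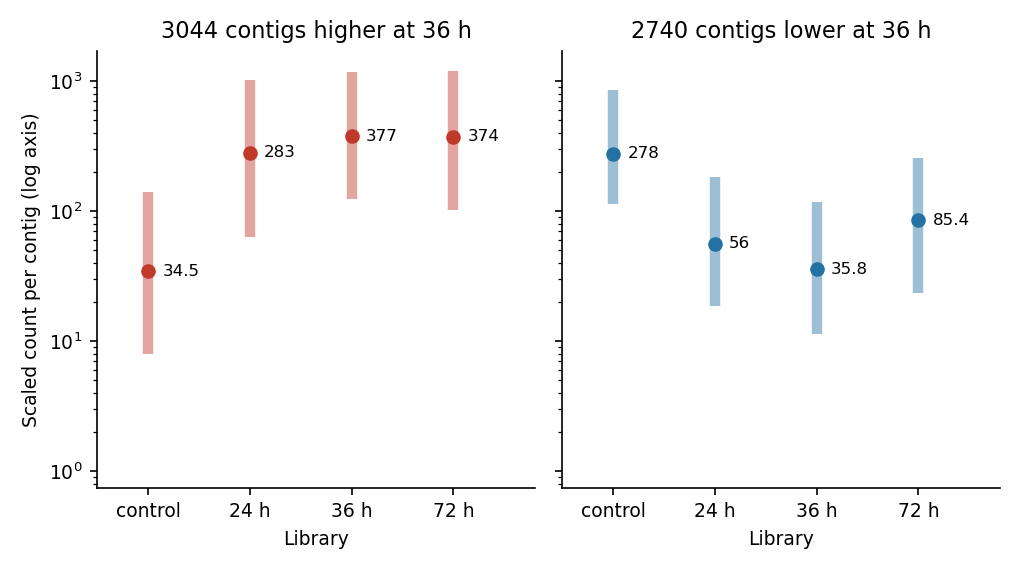
Points are medians and bars the middle 50% of the scaled counts per contig (y axis, log axis) in each library (x axis), for the contigs at least 4-fold higher (left) and lower (right) at 36 h than in the control. The medians of the higher contigs are 34.5 in the control and 283, 377 and 374 in the desiccated libraries, and those of the lower contigs 278 against 56.0, 35.8 and 85.4.

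The assembly groups contigs into clusters, shown by the c and g number of their names, and the contigs of a cluster can be parts or variants of 1 gene. The higher contigs lay in 1471 clusters and the lower ones in 1583. Of the 7656 clusters with 2 or more contigs compared, 740 held 1 or more higher contigs, and in 432 of these (58.4%) each contig compared was higher. For lower contigs the numbers were 689 and 377 (54.7%). Contigs of a cluster had close ratios. The range of the log2 ratio within a cluster had a median of 0.23, and 345 clusters (4.51%) spanned 2 or more. In 3942 clusters, some of the contigs compared had counts within 5% of each other in all 4 libraries. Such repeats have close ratios by their counts, so close ratios need not be agreement between separate transcripts. Of the 5351 clusters with 1 contig compared, 13.7% were higher and 16.7% lower. Of the 35929 contigs in clusters of 2 or more, 6.44% were higher and 5.14% lower, a difference that was not tested. With counts summed per cluster, 1312 of 13584 clusters (9.66%) were higher and 1424 (10.5%) lower by the same 4-fold rule. Which side was the more numerous turned with the setting: 647 clusters of 2 or more contigs were higher and 598 lower, and scaling by library totals gave 2909 higher and 2955 lower contigs. The median log2 ratio of clusters was -0.13.

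In the authors' deposited table of this pair, an adjusted p-value under 0.05 was reached by 308 contigs higher at 36 h and 105 lower, which is 0.334% and 0.114% of the 92138 with a p-value. DESeq is the tool for such p-values in the submitters' processing notes, and with 1 library a side the spread behind them was not measured on replicates. Each of the 413 contigs was also past 4-fold here. They made up 10.1% of the higher contigs and 3.83% of the lower ones. The smallest fold change of a call in the authors' deposited table was 23.5 for higher contigs and 23.3 for lower ones. No called contig had fewer than 195.5 scaled counts in whichever of the 2 libraries was higher. The bands from 50 to 100 and from 100 to 200 scaled counts held 67 and 90 contigs at least 64-fold higher, and 26 and 29 lower. Between 16-fold and 64-fold, the authors' deposited table called 37 of 402 higher and 29 of 405 lower contigs. From 64-fold to 256-fold it called 120 of 296 and 41 of 108, and beyond 256-fold 151 of 151 and 35 of 35. Of the contigs past 64-fold, the authors' deposited table called 271 of 447 higher and 76 of 143 lower ones. Of the calls in the authors' deposited table, 74.6% were higher at 36 h, against 52.6% of the contigs past 4-fold and 75.8% of those past 64-fold. Contigs with 0 reads in the control made up 128 of the 308 higher calls, and 17 of the 105 lower calls had 0 reads at 36 h. Of the 78 contigs past 4-fold with 20000 or more scaled counts, the authors' deposited table called 14.

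**Figure D5:**
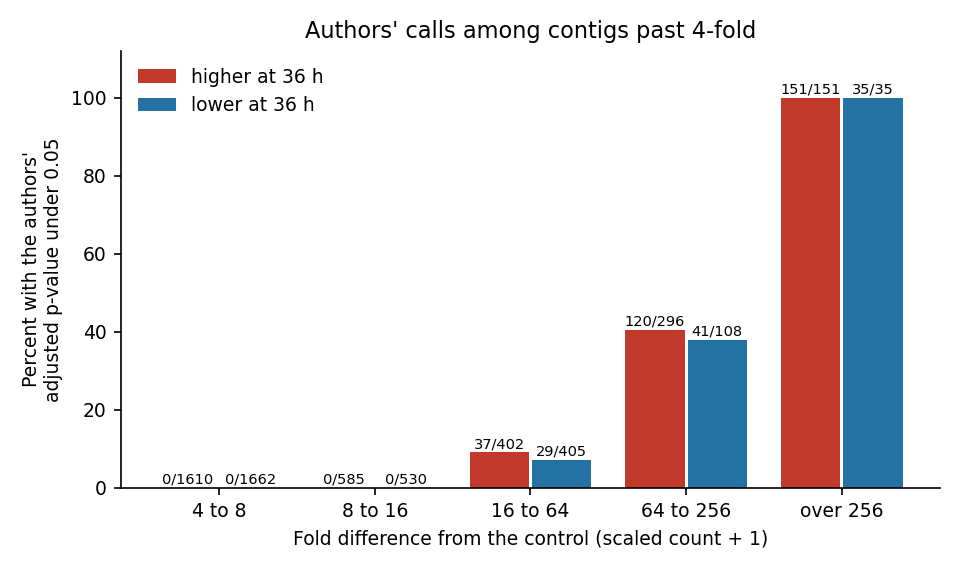
Bars give the percent of contigs past 4-fold that the authors' deposited table gives an adjusted p-value under 0.05 (y axis), by band of fold difference between 36 h and the control (x axis), red for higher and blue for lower at 36 h. Above each bar stands the number called and the number in the band, which goes from 0 of 1610 in the band from 4-fold to 8-fold to 151 of 151 beyond 256-fold for higher contigs.

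The status column of the authors' deposited table called more contigs, 1586 upregulated and 944 downregulated. Of these calls, 2117 had an adjusted p-value of 0.05 or more, and each had an unadjusted p-value of at most 0.05. The smallest fold change of a status call in the authors' deposited table was 4.45 for upregulated and 4.60 for downregulated contigs, so that all 2530 were past 4-fold here as well.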

How the data were processed

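RNA of 4 libraries of Ulva lactuca thalli was counted on contigs of a de novo assembly, 1 library a condition. Per the submitters' processing notes, the tools were DESeq, Bowtie2 and cutadapt. Their versions and settings, the assembler, and what was done with reads matching several contigs are not stated there. The authors deposited raw read counts per contig, not normalized. A second pair of columns is a signal on the count scale, which the authors made by dividing counts by a size factor. The fold change deposited by the authors is the linear ratio of those scaled values, and the authors also deposited a raw and an adjusted p-value per contig. Of the repeated count columns, 6 of 6 were identical between the 5 tables.

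Here, each library was divided by its size factor (median of ratios, from all 4 libraries), which was 0.885 in the control, 1.13 in the 24 h, 1.15 in the 36 h and 0.890 in the 72 h library. Log2 ratios used a pseudocount of 1, and named contigs have ratios with nothing added. A 0 was replaced by 3 counts for bounds. Libraries were thinned by binomial sampling. No test across contigs was run, since 1 library a side leaves no residual degrees of freedom. The calculation was tested on simulated counts that held counting error but no spread between samples. Changes were set there only in contigs well above the count minimum. Such a test checks the arithmetic and cannot show how many calls would recur in replicates. Contigs were named by a fixed rule, the 2 largest gains and losses in scaled counts. The members and rules were chosen with earlier results of these data known. Depth was 52643595 to 74243310 reads a library, and duplicate PCR reads were not marked, so intervals cover counting error only. Alternatives were other count minimums, pseudocounts, scalings and thresholds, cluster sums, and settings chosen after seeing the data for the 64-fold counts, near-identical contigs and named contigs. Calculations used Python 3.11.15, numpy 2.4.6, pandas 2.3.3 and scipy 1.17.1, with TMM from edgeR 4.0.16 in R 4.3.3.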

Additional observations from a re-analysis of the deposited data

How the results depend on the processing

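The number of contigs past 4-fold depended most on the count minimum and the threshold. With a minimum of 10 scaled counts 5981 contigs were higher and 5045 lower, with 200 the numbers were 1938 and 1624, and with none 10355 and 7219. At 2-fold 7927 were higher and 8353 lower, at 8-fold 1434 and 1078, and summed per cluster 1312 and 1424. The direction of the balance turned at 2-fold, in cluster sums and with library totals, which gave 2909 higher and 2955 lower. Other scalings left 50% or more of the calls higher, up to 58.6% with the upper quartile, which moved the median log2 ratio of all contigs by 0.11. The reads of higher contigs at 36 h and of lower contigs in the control were 8.74% and 7.16% with a minimum of 10, 8.45% and 6.88% with 200, and 8.78% and 7.18% with none. They were 8.35% and 7.40% with library totals, 9.40% and 6.51% with the upper quartile, 8.77% and 6.83% with TMM, and 8.89% and 6.70% with median of ratios over the 2 libraries. At 2-fold they were 29.7% and 21.4%, and at 8-fold 3.71% and 3.83%.

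At 64-fold, the settings chosen after seeing the data kept more contigs higher than lower, with 179 and 83 without contigs at 0 and 290 and 88 with a minimum of 200. The libraries thinned to the smallest total gave 412 and 139, and the scalings between 442 and 465 higher and between 139 and 151 lower. With at most 3 reads in place of 0, 565 contigs were missing from the control and 256 from the 36 h library. Among clusters of 2 or more contigs, 647 were higher and 598 lower, which turns the balance of all clusters. In the authors' deposited table an adjusted p-value under 0.01 left 205 higher contigs, and the status column gave 1586 higher and 944 lower. The other counts stayed within 1.5 times, in 37 of 60 comparisons. The cause of these changes was not tested. A count of 0 allows up to 3 counts at this depth, and the interval of a ratio widens as the smaller of its 2 counts falls. No paired analysis was possible because each condition has 1 library and the labels give no replicate numbers.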

Other observations

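Few clusters held contigs of both directions at 36 h. In 11 clusters at least 1 contig was 4-fold higher and at least 1 other 4-fold lower than in the control, among 4 to 20 contigs compared in each. The summed counts of these clusters lay within 2-fold of the control in 6, between 2-fold and 4-fold in 3, and were at least 4-fold higher in 2 and lower in 0. How the counting divided reads between contigs of a cluster is not stated, and the values of single contigs in such clusters are uncertain.

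Many contigs repeat the counts of another contig of their cluster. Keeping 1 contig of each set whose counts lay within 5% of each other in all 4 libraries left 32099 of the 41280 contigs compared. It left 2647 of the 3044 higher contigs and 2552 of the 2740 lower ones, so that 13.0% of the higher contigs were repeats against 6.86% of the lower and 22.2% of all contigs compared.

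The authors' scaling of this pair rests on 1 simple fraction. The size factors in the authors' deposited table were 0.894 for the control and 1.12 for 36 h, a ratio of 1.25, which is the median of the read ratios over the 77215 contigs read in both libraries. Of these contigs, 383 had exactly that ratio of reads. Size factors over all 4 libraries had a ratio of 1.30, and the library totals one of 1.35.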
